A study of Mus musculus with 2 samples.

Results

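The cells described here are 1384 wild type cells with the highest mean log-scaled expression of 6 genes of the formative epiblast, among 9227 wild type cells kept and 17364 cell barcodes in the whole series. The series profiled single cells of AB2.2, an established mouse embryonic stem cell line, by 10x Genomics droplet RNA sequencing after 4 days of differentiation toward mesendoderm. There is 1 library of cells with a PHD2 knockout (PHD2-KO), in which the oxygen-sensing prolyl hydroxylase PHD2 was targeted, and 1 library of wild type (WT) cells. The labels do not say whether either library is a single clone, and no treatment other than the genotype is labelled. Kept cells had 1000 or more genes detected and no more than 10% of their unique molecular identifiers (UMIs, each a counted RNA molecule) from mitochondrially encoded genes. The score of a cell was the mean, over Pou3f1, Utf1, Slc7a3, Dnmt3b, L1td1 and Gdf3, of the natural log of 1 plus the counts per 10000 UMIs. The 15% of WT cells with the highest score are called high-score cells, the 15% with the lowest are called low-score cells (1384 cells), and 6459 cells lay between.

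Embryonic stem cells correspond to the naive epiblast of the blastocyst, and the formative epiblast is the next state, in which naive genes such as Zfp42 and Klf4 are switched off and the embryo becomes able to answer signals for the germ layers. Otx2 and Pou3f1 are transcription factors of that state, Dnmt3b and Dnmt3a lay down new DNA methylation, and Fgf5 is a secreted growth factor long used as its marker. The primitive streak, where mesendoderm forms, then switches on T, Eomes and Mixl1. Pou5f1, Sox2 and Nanog are shared by naive and later epiblast cells in differing amounts.

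The WT library held 9651 barcodes and 226179474 UMIs, and its kept cells had a median of 20740 UMIs and 3617 genes. The PHD2-KO library held 7713 barcodes and 173470962 UMIs. Egln1, which encodes PHD2, was at 13.7 CPM in PHD2-KO cells and 18.1 CPM in WT cells, and which bases of it were altered is not stated, so this level checks the label only weakly. The 22 barcode sequences that occur in both libraries are 0.228% of the WT barcodes. Each genotype is 1 library, so no p-value or standard error is given. Levels are UMIs summed over a group of cells and scaled to a total of 1000000 (CPM). Intervals are 95% intervals for counting error alone, exact Poisson for levels, exact binomial for shares and exact conditional binomial for ratios, and they do not measure the spread between cultures.

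The score ran from 0 to 1.85 with a median of 0.789. The lowest high-score cell (0.990546) lay next to the highest cell outside (0.990516). Among 9227 cells neighbours are close at almost any limit, so this does not show whether the score has a separate upper peak. The median score was 1.07 in high-score cells and 0.488 in low-score cells. The 50 cells just inside the limit carried 472 CPM of L1td1, 156 of Dnmt3b and 138 of Pou3f1, and the 50 just outside 428, 177 and 109 CPM. Utf1 was at 472 CPM inside and 497 outside, Slc7a3 at 90.7 and 87.3, and Gdf3 at 50.6 and 51.8. These genes made the score and no interval was computed for so few cells, so no direction is read from them. The high-score cells were chosen as an upper range of the score, and whether they form a cluster was not tested.

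The 6 genes that chose the cells are given first, as a description only. Dnmt3b (ENSMUSG00000027478; mm10 chromosome 2, 153649450 to 153687730, plus strand), a de novo DNA methyltransferase, was at 210 CPM in high-score cells, 109.5 CPM in the cells between and 42.1 CPM in low-score cells. Pou3f1 (ENSMUSG00000090125; chromosome 4, 124656807 to 124660655, plus strand), a POU-domain transcription factor, was at 159, 84.7 and 34.1 CPM in the same order of groups. L1td1 (ENSMUSG00000087166; chromosome 4, 98726734 to 98738480, plus strand), an RNA-binding protein derived from a LINE-1 element, was at 493, 297 and 141 CPM. All 3 were highest in the high-score cells, as the selection requires. Utf1 (ENSMUSG00000047751; chromosome 7, 139943789 to 139945112, plus strand), a chromatin-associated factor of pluripotent cells, gave the most UMIs at 547, 423 and 272 CPM. Slc7a3 (ENSMUSG00000031297; chromosome X, 101079210 to 101086020, minus strand), a transporter of cationic amino acids, was at 109, 63.7 and 29.3 CPM. Gdf3 (ENSMUSG00000030117; chromosome 6, 122605403 to 122610087, minus strand), a ligand of the TGF-beta family, was at 67.4, 32.3 and 16.4 CPM. Utf1 differed least between the ends, and Gdf3 gave the fewest UMIs, with a median of 1 UMI in a high-score cell against 12 for Utf1, 10 for L1td1 and 4 for Dnmt3b.

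The measurement that the choice did not fix is each gene's level in cells chosen on the other 5 genes. Chosen this way, Dnmt3b was at 148 CPM in high-score cells and 86.1 CPM in low-score cells, a ratio of 1.72 (1.63 to 1.81). L1td1 was at 372 and 245 CPM (ratio 1.52, 1.47 to 1.57), and Slc7a3 at 80.6 and 52.2 CPM (1.54, 1.45 to 1.65). Pou3f1 was at 101 and 78.5 CPM (1.29, 1.22 to 1.36). Utf1 reached 450 against 409 CPM (1.10, 1.07 to 1.13), and Gdf3 37.6 against 35.04 CPM, where the interval of the ratio of 1.07 included no difference (0.984 to 1.17). Dnmt3b, L1td1 and Slc7a3 thus followed the others by 1.5-fold or more. In the same choices the median log2 ratio of all other genes at 5 CPM or more was 0.11, 0.07 and 0.19. The log2 ratios of Dnmt3b, L1td1 and Slc7a3 were 0.78, 0.60 and 0.63. For Pou3f1 the median was 0.15 against its own 0.37. For Utf1 and Gdf3 the medians were 0.26 and 0.19, above their own 0.14 and 0.10, so neither followed the others beyond the typical gene. The correlation between markers over the 9227 cells, all from 1 library and sharing its depth, was highest for Dnmt3b with L1td1 (r = 0.29) and ran from -0.05 to 0.29 over the 15 pairs with a median of 0.06. In counts this sparse, values near 0 say little.

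**Figure D1:**
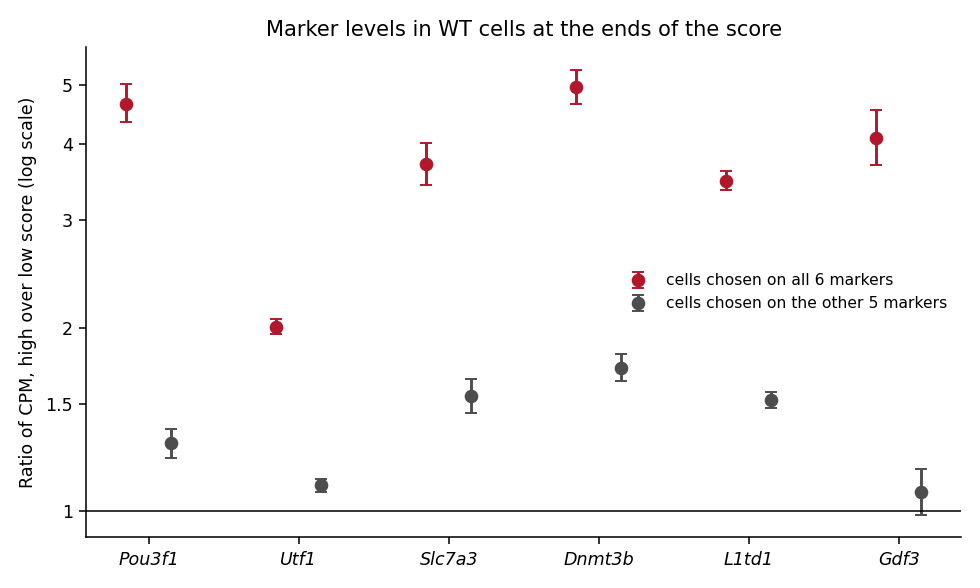
Ratio of the level (CPM) in high-score over low-score WT cells for the 6 marker genes, on a log axis with 95% counting intervals. Red points use cells chosen on all 6 genes and grey points use cells chosen on the other 5; the ratio of Dnmt3b is 4.98 with all 6 and 1.72 with the other 5, and that of Gdf3 is 4.10 and 1.07.

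The promoters of the pair that moved together most, Dnmt3b and L1td1, are shown with that of Krt8, a keratin gene lower in high-score cells. Each run holds 250 bases before and 30 bases after the RefSeq start on the GRCm38.p6 assembly, 5′ to 3′ on the gene's strand, at chr2:153649199-153649478 (plus strand), chr4:98726504-98726783 (plus) and chr15:102004313-102004592 (minus). Capitals mark the GC box letters GGGCGG and the TATA box letters TATAAA, searched on both strands.
Dnmt3b: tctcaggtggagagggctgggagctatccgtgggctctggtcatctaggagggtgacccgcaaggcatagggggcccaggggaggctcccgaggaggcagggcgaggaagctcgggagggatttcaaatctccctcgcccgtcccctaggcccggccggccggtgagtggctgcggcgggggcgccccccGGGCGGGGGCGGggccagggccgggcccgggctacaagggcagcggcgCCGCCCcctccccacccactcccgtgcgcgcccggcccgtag
L1td1: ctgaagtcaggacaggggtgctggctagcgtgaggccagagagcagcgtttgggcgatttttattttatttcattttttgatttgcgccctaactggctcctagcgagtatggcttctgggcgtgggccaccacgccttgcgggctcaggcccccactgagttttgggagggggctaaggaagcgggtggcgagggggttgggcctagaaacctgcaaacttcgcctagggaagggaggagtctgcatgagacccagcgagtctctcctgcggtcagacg
Krt8: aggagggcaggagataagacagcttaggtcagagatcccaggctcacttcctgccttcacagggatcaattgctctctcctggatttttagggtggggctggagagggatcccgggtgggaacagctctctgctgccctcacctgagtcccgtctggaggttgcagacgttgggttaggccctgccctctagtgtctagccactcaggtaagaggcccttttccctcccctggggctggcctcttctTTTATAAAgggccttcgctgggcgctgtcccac
The Dnmt3b window held 3 GC box matches and 26 CpG dinucleotides, the L1td1 window 0 matches and 14 CpG, and the Krt8 window an overlapping pair of TATA box matches, 1 on each strand, with 5 CpG. Among 32851 RefSeq promoter windows of the same length, 13.1% held TATAAA, 34.7% held GGGCGG, and the median number of CpG was 6. RefSeq sequences were matched for 3 of the 6 marker genes. These letter matches are a description and were not related to binding.

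The score of a cell rests on few molecules. When the UMIs of every cell were split at random into 2 equal parts, the 2 scores of a cell had r = 0.48 over 9227 cells, and 513 of the 1384 high-score cells of the first part (37.1%, 34.5 to 39.7%) were again among the highest 15% in the second. Only 39 (2.82%) were among the lowest 15%. After every cell was thinned to 14000 UMIs, 27.3% of 1280 high-score cells had at least 1 UMI of all 6 genes, against 5.58% of 6054 cells between and 0 of 1107 low-score cells, where 3 cells (0.271%) is the limit that a count of 0 allows. In the same thinned cells 5 or 6 of the genes were seen in 80.1% of high-score cells and 2.26% of low-score cells. Because the cells were chosen on these 6 genes, the choice itself sets these differences, and the shares are a description only. At this depth 255 of the 1280 high-score cells had a UMI of 3 or 4 of the genes, 676 of 5 and 349 of all 6, and sampling of few UMIs was not separated from differences between cells.

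Depth and composition moved with the score. High-score cells had a median of 21976 UMIs and 3885.5 genes, and low-score cells 17953 UMIs and 3266.5 genes. Ribosomal protein genes took a median of 35.8% of the UMIs in high-score cells and 38.1% in low-score cells, and the mitochondrial share was 1.08% and 1.07%. UMIs of genes on a G2M phase list made up 0.740% in high-score cells and 0.596% in low-score cells, and those on an S phase list 0.266% and 0.218%. A chromosome's share of UMIs differed little, with ratios of high over low from 0.930 to 1.05 over 20 chromosomes, with the 6 markers and the Y chromosome left out.

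Across all genes, 8241 reached 5 CPM in the higher group and are called measured (the 6 markers left out). Of these, 834 (10.1%) were 1.5-fold or more higher in high-score cells and 250 (3.03%) were 1.5-fold or more lower, and the median log2 ratio of CPM was 0.17. With median-of-ratios scaling in place of totals the counts were 401 higher and 340 lower, so the share of higher genes among those past the fold was 54.1% in place of 76.9%, and the median of all genes shifted by -0.11 to 0.06. Each list median below is read against 0.17, and each count of higher or lower members against 10.1% or 3.03%.

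Other formative epiblast genes were mostly higher in high-score cells. Of the 16 listed, all were measured, 12 were 1.5-fold or more higher and 0 lower, with a median log2 ratio of 0.75 (0.53 to 1.01 over members), against 10.1% and 0.17 for all genes. Foxd3, Grhl2 and Sox3 were measured through the high-score cells alone; of the 13 members that reached 5 CPM in both groups 10 were higher. Otx2 was at 26.2 CPM in high-score cells and 13.03 CPM in low-score cells, a ratio of 2.01 (1.77 to 2.29). Fgf5 was at 14.6 and 8.002 CPM (1.82, 1.55 to 2.15). Foxd3, a forkhead factor needed in the epiblast, had the highest ratio of the list at 10.9 against 3.29 CPM (3.33, 2.62 to 4.26), and Zic2, a zinc finger factor, followed at 22.6 against 10.7 CPM (2.11, 1.84 to 2.43). The member with the most UMIs, the kinase gene Pim2, was at 164 and 92.4 CPM (1.78, 1.69 to 1.86). At the other end of the list, Hes6 (55.3 and 52.2 CPM) and the ETS factor Etv4 (23.3 and 18.0 CPM) stayed under 1.5-fold. Dnmt3a, the partner methyltransferase of Dnmt3b, was at 20.97 and 10.4 CPM (2.01, 1.74 to 2.32; chosen after its value was seen). The order over 10 score bins was gradual: Otx2 ran from 11.7 CPM in the lowest bin to 26.4 in the highest, and Fgf5 from 7.12 to 15.7 CPM.

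How far these genes were apart depended on the markers used. The count of higher formative genes was 8 of 16 (median 0.57) when score and levels came from separate parts of the UMIs, 6 (0.52) with Dnmt3b left out of the score, 7 (0.55) with L1td1 left out, 8 (0.64) with median-of-ratios scaling, and 5 (0.44) against all other WT cells. Within bins of the number of genes detected it was 10 (0.68), and within bins of total UMIs 12 (0.75). The count of lower formative genes was 0 in each of these.

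Genes of general pluripotency were higher in part. Of 13 measured, 7 were 1.5-fold or more higher (53.8%, beside 10.1% of all genes) and 0 lower, with a median log2 ratio of 0.61 (0.32 to 0.80). The count was 2 (median 0.35) with L1td1 left out of the score and 3 (0.44) with Dnmt3b left out. Sox2 was at 50.9 CPM in high-score cells and 29.1 CPM in low-score cells (ratio 1.75, 1.60 to 1.91). Mycn, a growth-promoting transcription factor, was at 25.3 and 13.4 CPM (1.89, 1.67 to 2.15), and Lin28a, an RNA-binding protein that blocks let-7 maturation, at 79.7 and 45.2 CPM (1.77, 1.65 to 1.89). Tdgf1 encodes Cripto, a co-receptor for Nodal, and stood at 208 and 127 CPM (1.64, 1.57 to 1.71). Pou5f1, a defining gene of the labelled cell type (mESC), was at 157 and 125 CPM (1.25, 1.20 to 1.31), under the fold. Nanog was at 35.2 and 36.3 CPM, with a ratio whose interval included 1 (0.968, 0.888 to 1.05).

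Most measured naive genes were under the fold. Of 15 listed, 7 were measured, 0 were higher and 2 lower (28.6%, beside 3.03% of all genes), with a median log2 ratio of -0.17 (-2.72 to 0.34) beside 0.17 for all genes. Of the 5 that reached 5 CPM in both groups 0 passed the fold. The list median was 0.14 with Dnmt3b left out of the score. Zfp42 was at 21.4 CPM in high-score cells and 22.5 CPM in low-score cells (0.952, 0.852 to 1.06). Dppa5a, with the most UMIs of the list, was at 596 and 646 CPM (0.923, 0.904 to 0.942), and Klf5 at 27.6 and 21.8 CPM (1.27, 1.14 to 1.41). The 2 lower genes were measured through the low-score cells alone. They were Dppa3, a maternal factor that protects against DNA demethylation, at 2.26 against 14.9 CPM (0.151, 0.117 to 0.194), and Fbxo15, an F-box gene of stem cells, at 4.37 against 21.3 CPM (0.205, 0.170 to 0.246).

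Genes of the 2-cell-like state, a rare state of stem cell cultures that resembles the 2-cell embryo, were found at the low end. Of 8 listed, 4 were measured, all of them through the low-score cells alone, so their count is no support for a direction. Zscan4c had 0 UMIs in high-score cells and 7.69 CPM in low-score cells. With the high-score cells set to the floor of 3 UMIs the ratio was 0.0114, and the counting interval reached up to 0.0142. Zscan4f was at 0.205 and 7.04 CPM (0.0292, 0.0116 to 0.0613). These are near-identical gene copies, and how reads that match several copies were counted is not stated in the labels or headers. A UMI of Zscan4c, Zscan4d or Zscan4f was present in 11 of 1384 high-score cells (0.795%), 65 of 6459 cells between (1.01%) and 50 of 1384 low-score cells (3.61%, 2.69 to 4.74%). Low-score cells with such a UMI had a median of 15762 UMIs in total and those without 18065; no cell type known to lack Zscan4 was at hand, so the share that free RNA gives was not measured. With all cells that hold a Zscan4 UMI left out, a choice made after seeing the data, Dppa3 and Fbxo15 had log2 ratios of -2.24 and -1.41 against -2.72 and -2.29 with them.

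**Figure D2:**
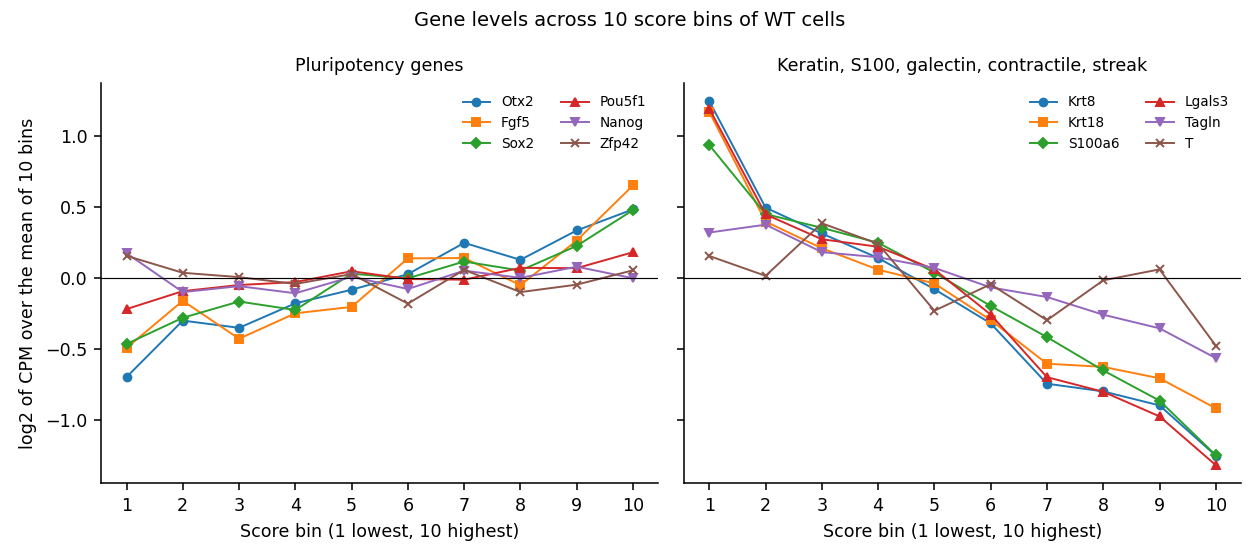
Levels in 10 bins of equal cell number along the score of WT cells (bin 1 lowest, bin 10 highest), as the log2 of a gene's CPM over the mean of its 10 bins. On the left Otx2, Fgf5 and Sox2 climb and Nanog and Zfp42 stay near 0; on the right Krt8, Krt18, S100a6 and Lgals3 decline over the whole range, Krt8 to 73.5 CPM in bin 10, against 413 CPM in bin 1.

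Keratin, annexin, S100 and galectin genes were among the 15 lowest ratios of genes at 50 CPM or more. Krt8 and Krt18 encode the paired keratins of simple epithelia. Krt8 was at 79.9 CPM in high-score cells and 356 CPM in low-score cells (ratio 0.224, 0.215 to 0.234), and Krt18 at 117 and 397 CPM (0.296, 0.285 to 0.307). Krt19 was at 30.001 and 137 CPM (0.219, 0.204 to 0.235). Krt8 and Krt18 were lower in each successive bin of the score. Of the 8 measured genes of the keratin and desmosome list, 4 were lower (50%, beside 3.03% of all genes) and 0 higher. Their median log2 ratio was -0.62 (-2.19 to 0.40). The fourth was Sfn, the 14-3-3 sigma gene, at 401 and 713 CPM (0.562, 0.550 to 0.575), while the desmosome genes Dsg2 (16.3 and 12.4 CPM) and Pkp2 (24.5 and 20.8 CPM) were under the fold on the higher side.

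Annexins bind membranes in the presence of calcium, S100 proteins are small calcium sensors and galectins bind sugars. Of 14 measured genes of these families 11 were lower and 0 higher (78.6% against 3.03% of all genes), with a median log2 ratio of -1.12 (-1.91 to -0.31). S100a6 was at 104 CPM in high-score cells and 391 CPM in low-score cells (0.267, 0.256 to 0.277). Lgals3 was at 10.9 and 50.3 CPM (0.216, 0.192 to 0.243), and Anxa1, measured through the low-score cells alone, at 1.52 and 10.2 CPM (0.150, 0.109 to 0.203). Anxa4 (20.1 and 22.9 CPM) and Anxa7 (30.9 and 36.2 CPM) stayed under the fold. The log2 ratio of Krt8 was between -2.67 and -1.17 over 26 alternative settings, and that of S100a6 between -2.29 and -1.18.

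Contractile genes were lower in part. Of 16 measured, 3 were lower (18.8%, beside 3.03% of all genes) and 0 higher, with a median log2 ratio of -0.17 (-0.39 to 0.09) beside 0.17. These were the actin genes Acta1 (27.1 and 89.1 CPM; 0.304, 0.282 to 0.329) and Acta2 (12.8 and 33.2 CPM; 0.385, 0.342 to 0.432) and Tagln, an actin-binding protein of smooth muscle, at 570 and 1021 CPM (0.559, 0.548 to 0.569). Actb, the abundant cytoplasmic actin, was at 2147 and 2425 CPM. Vim, the mesenchymal intermediate filament, was at 59.9 CPM in high-score cells and 134 CPM in low-score cells (0.448, 0.424 to 0.473). Vim was the only lower gene of 4 measured on the mesenchymal list (25%, beside 3.03% of all genes). Twist1 was the only higher one (25%, beside 10.1%), at 9.15 and 5.10 CPM (1.79, 1.46 to 2.21). Fn1 (22.5 and 26.0 CPM) and Sparc (180 and 250 CPM) were under the fold. The thymosin gene Tmsb4x (448 and 1108 CPM), Ifitm1, Ddit4l and the fatty acid binding protein gene Fabp3 (83.2 and 176 CPM) complete the 15 lowest ratios among genes of at least 50 CPM, together with Anxa2, Anxa3, S100a11 and Lgals1.

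Genes of the germ layers were scarce at both ends. T was at 4.87 CPM in high-score cells and 6.46 CPM in low-score cells (0.754, 0.605 to 0.940). Of 5 measured streak genes, 1 was higher and 2 lower (20% and 40%, beside 10.1% and 3.03% of all genes). Their median log2 ratio was -0.41, and 0.25 with Utf1 left out of the score. Eomes, a T-box factor, was higher at 14.5 and 9.36 CPM (1.55, 1.33 to 1.82), whereas Sp5, a Wnt target, was lower at 6.19 and 11.7 CPM (0.528, 0.441 to 0.632), as was the ligand Wnt3 at 9.53 and 14.6 CPM (0.654, 0.562 to 0.761). Of 8 nascent mesoderm genes only Phlda2 was measured (145 and 196 CPM), and 0 of 5 definitive endoderm and 0 of 8 feeder fibroblast genes were. In neuroectoderm Nes alone was measured, at 56.3 and 48.0 CPM. On the blood and endothelial list Etv2 alone was measured, at 11.4 and 10.5 CPM.

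Signalling genes showed members in both directions. In the FGF and ERK list 3 of 9 were higher (33.3%, beside 10.1% of all genes) and 0 lower (median 0.38). The higher genes were the ETS factor Etv5 at 29.2 and 17.8 CPM (1.64, 1.47 to 1.84) and the phosphatase gene Dusp4 at 15.8 and 8.89 CPM (1.77, 1.52 to 2.08). The third was the ligand Fgf15, measured through the high-score cells alone, at 6.42 and 2.55 CPM (2.52, 1.90 to 3.37). In the Wnt list 3 of 7 were higher and 1 lower (42.9% and 14.3%, beside 10.1% and 3.03% of all genes). Higher were Fzd7, Tcf7l1 and Ccnd1, and lower was the ligand gene Wnt6 at 3.67 and 10.7 CPM (0.342, 0.275 to 0.424). Fzd7 was measured through the high-score cells alone and Wnt6 through the low-score cells alone; of the 5 Wnt genes at 5 CPM in both groups 2 were higher and 0 lower. The count of higher Wnt genes was 1 with Dnmt3b left out of the score. Tcf7l1, a repressor of Wnt targets in the epiblast, was at 41.0 and 22.8 CPM (1.80, 1.63 to 1.98). In the BMP list 1 of 6 was higher and 2 lower (16.7% and 33.3%, beside 10.1% and 3.03% of all genes), with a median of -0.31. Lower were Id3, a direct target, at 178 and 278 CPM (0.641, 0.619 to 0.663) and Msx1 at 7.45 and 13.3 CPM (0.560, 0.474 to 0.661). The inhibitor Smad7 was higher at 45.7 and 26.6 CPM (1.72, 1.57 to 1.88). Id1, with the most UMIs of the list, was under the fold at 382 and 546 CPM (0.700, 0.684 to 0.717), as was Bambi (1.02, 0.865 to 1.19). None of 8 measured Nodal pathway genes passed the fold; Nodal itself was at 61.4 and 68.8 CPM.

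In the DNA methylation list 3 of 6 were higher and 1 lower (50% and 16.7%, beside 10.1% and 3.03% of all genes), with a median of 0.61. The count of higher members was 0 with L1td1 left out of the score. Tet1, which oxidises methylated cytosine, was at 30.5 CPM in high-score cells and 15.3 CPM in low-score cells (1.99, 1.77 to 2.24), and Dnmt1, the maintenance methyltransferase, at 69.4 and 43.9 CPM (1.58, 1.47 to 1.70). The third was the glycosylase gene Tdg, and the lower member was Dppa3, which was measured through the low-score cells alone. Among 11 amino acid transporters 2 were higher (18.2%, beside 10.1% of all genes), Slc7a7 at 33.1 and 20.2 CPM (1.64, 1.47 to 1.82) and Slc38a1 at 44.6 and 29.6 CPM (1.51, 1.38 to 1.65), and the list median was 0.44. The count was 0 of 11 with score and levels from separate parts of the UMIs, within bins of genes detected, and with Pou3f1, Dnmt3b or L1td1 left out of the score.

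Genes of oxidative phosphorylation and glycolysis were mostly under the fold. Of 22 oxidative phosphorylation genes 0 passed it in either direction. Their median log2 ratio of -0.05 (-0.12 to -0.01 over members) lay below the 0.17 of all genes. Of 16 glycolysis genes (median 0.08, -0.12 to 0.20) only Hk2 passed the fold, at 40.2 and 26.4 CPM (1.52, 1.39 to 1.67). Targets of the hypoxia-inducible factor gave 3 higher and 1 lower of 8 (37.5% and 12.5%, beside 10.1% and 3.03% of all genes; median 0.10). The lower gene, P4ha2, was measured through the low-score cells alone (4.81 and 8.85 CPM). Of the 6 targets at 5 CPM in both groups 3 were higher and 0 lower (median 0.32). Among the higher were Pdk1 at 12.9 and 6.80 CPM (1.90, 1.59 to 2.28) and Vegfa at 8.94 and 5.10 CPM (1.75, 1.42 to 2.17). Of 102 ribosomal protein genes and 12 mitochondrially encoded genes, 0 passed the fold.

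**Figure D3:**
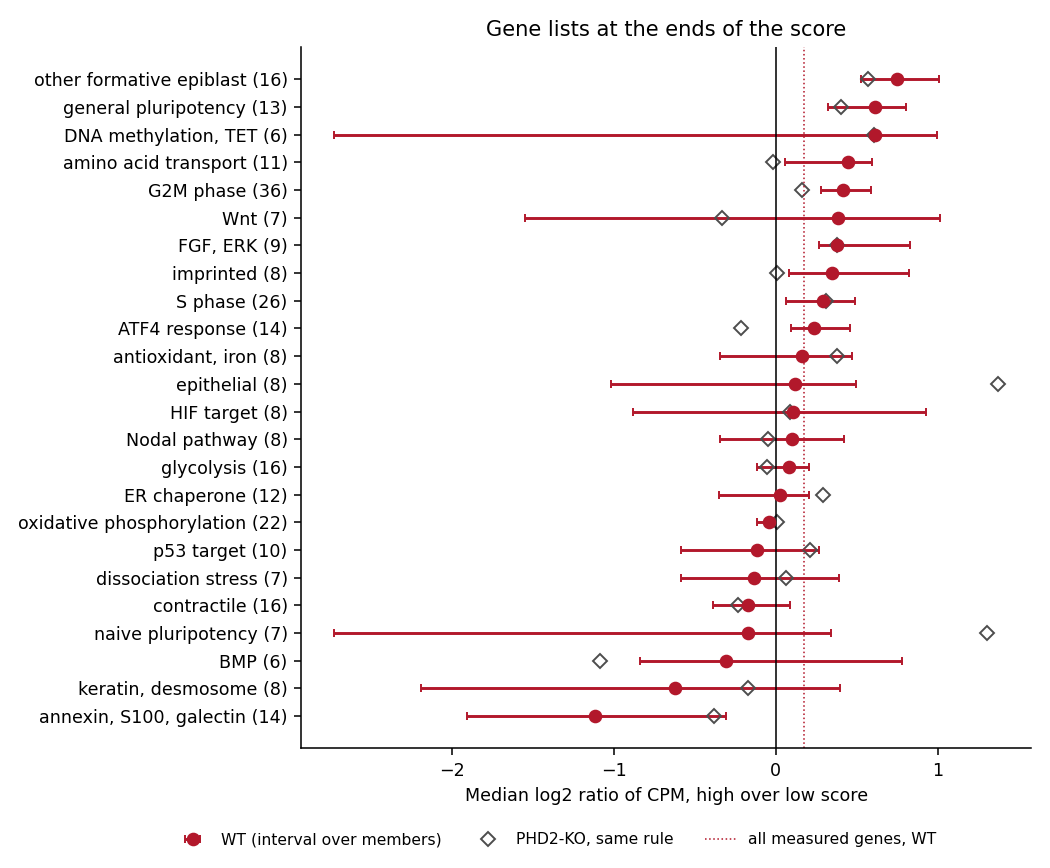
Median log2 ratio of CPM, high-score over low-score cells, for gene lists with at least 6 measured members in WT cells (number of members in parentheses). Red points with order-statistic intervals over members are WT cells, open diamonds are PHD2-KO cells under the same rule, and the dotted line is the median of all measured genes in WT cells (0.17).

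The 15 highest ratios among genes of at least 50 CPM ran from 1.80 to 1.98. Ankrd11, a chromatin regulator, was at 241 CPM in high-score cells and 123 CPM in low-score cells (1.95, 1.87 to 2.03). Top2a, the topoisomerase of dividing cells, was at 274 and 151 CPM (1.82, 1.75 to 1.89), and Lmnb1, the nuclear lamin B1 gene, at 112 and 59.3 CPM (1.89, 1.78 to 2.01). Mki67 (71.8 and 38.0 CPM), Tpx2 (114 and 62.9 CPM) and Cenpf (162 and 90.2 CPM), which act in mitosis, were also among them. The others were Hirip3, Taf15, Trim24, Ranbp2, Nufip2, Mdn1, Bptf, Rif1 and Zdbf2. On the G2M phase list 11 of 36 were higher (30.6%, beside 10.1% of all genes) and 0 lower (median 0.41, 0.28 to 0.58), and on the S phase list 4 of 26 were higher (15.4%) and 0 lower (0.29). Both counts were 0 with L1td1 left out of the score. Of the 11 G2M genes, 7 were among the 9 members in the longest tercile of transcript length and 4 among the other 27. When the ends of the score were taken within 10 bins of the share of UMIs from these cell cycle lists, 459 genes were higher and 146 lower, and the formative list gave 10 of 16 with a median of 0.74.

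Transcript length moved with the ratio. The longest annotated transcript had a median of 4877 bases in the 834 higher genes, 1651 bases in the 250 lower genes and 3214 bases in all measured genes. In the longest tercile of measured genes 19.8% were higher and 0.619% lower (median log2 ratio 0.38), and in the shortest tercile 1.68% were higher and 6.74% lower (median -0.03). Of the other formative genes, 5 of 6 in the longest tercile and 7 of 10 in the remaining terciles were higher. All 14 measured annexin, S100 and galectin genes were outside the longest tercile. The part of length in the single ratios was not tested.

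**Figure D4:**
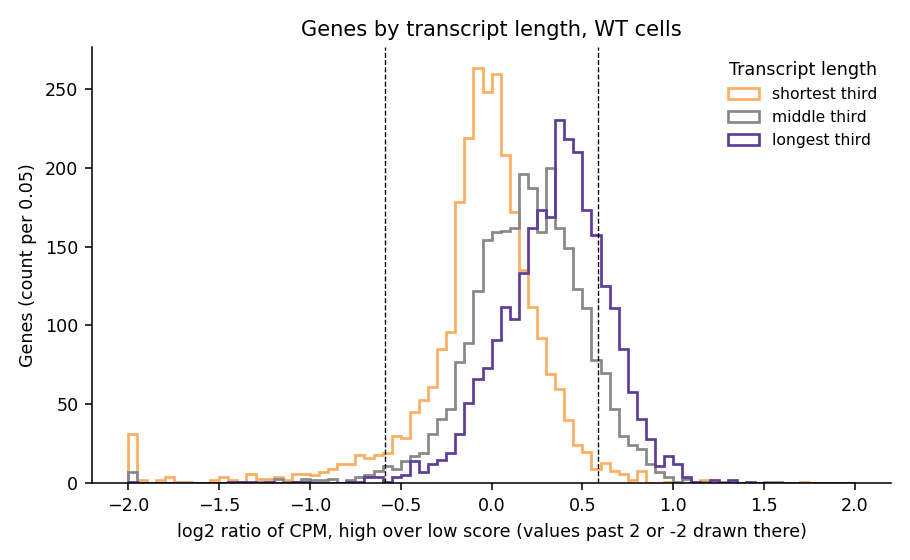
Number of measured genes by log2 ratio of CPM, high-score over low-score WT cells, in terciles of longest transcript length. Dashed lines mark 1.5-fold; the longest tercile has its median at 0.38 and the shortest at -0.03.

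The number of higher genes, but not that of lower genes, turned on single markers. With L1td1 left out of the score 76 genes were higher and 235 lower, and with Dnmt3b left out 192 were higher and 182 lower. With Utf1 left out 2041 were higher and 213 lower. The gap in median log2 ratio between the longest and the shortest tercile moved alike: 0.40 with all 6 markers, 0.12 without L1td1, 0.23 without Dnmt3b and 0.62 without Utf1. It was 0.36 without Pou3f1, 0.45 without Slc7a3 and 0.45 without Gdf3. The longest annotated transcript has 1227 bases for Utf1, 2125 for Gdf3, 2750 for Slc7a3, 2942 for L1td1, 3849 for Pou3f1 and 4320 for Dnmt3b, and the part of marker length in these gaps was not tested. Leaving out Pou3f1, Slc7a3 or Gdf3 gave 743, 1098 and 1146 higher genes. When the ends were taken within 10 bins of the number of genes detected, chosen after seeing the data, 409 genes were higher and 248 lower, and within 10 bins of total UMIs 871 and 218.

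**Figure D5:**
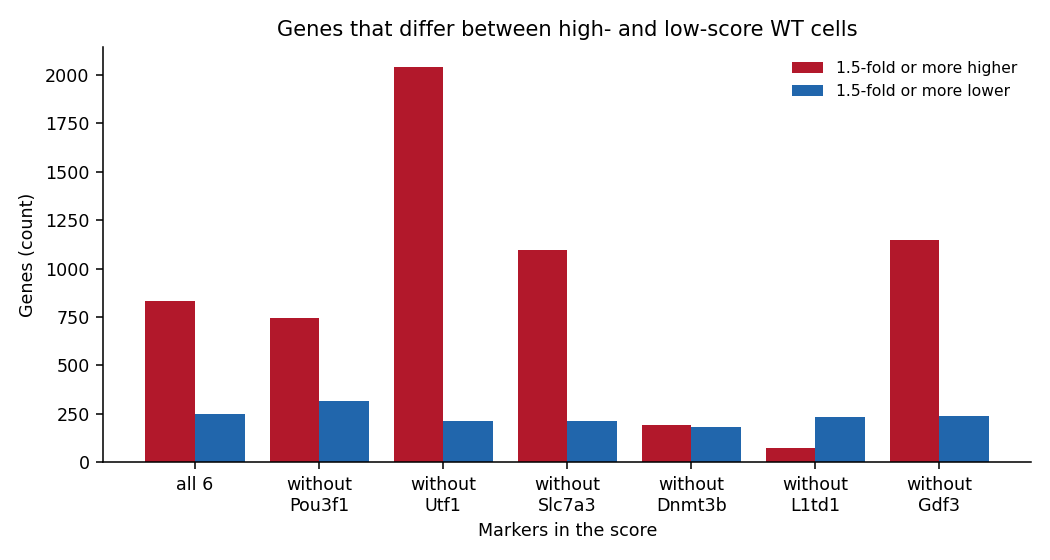
Number of measured genes that were 1.5-fold or more higher (red) or lower (blue) in high-score than in low-score WT cells, for the score from all 6 markers and with each marker left out. Higher genes range from 76 without L1td1 to 2041 without Utf1, and lower genes from 182 without Dnmt3b to 317 without Pou3f1.

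The same rule was applied to the PHD2-KO library with its own limits, which gives cells that did not enter the choice. Its scores were lower: 43 of 7383 PHD2-KO cells (0.582%, 0.422 to 0.784%) reached the limit of the high-score WT cells, and 5986 (81.1%) were at or below the limit of the low-score WT cells. Between the highest and lowest 15% (1107 cells each), 1171 of 8820 measured genes were higher (13.3%) and 408 lower (4.63%). Chosen on the other 5 genes, Pou3f1 was 1.29-fold higher in high-score WT cells and 4.31-fold (3.68 to 5.06) in PHD2-KO cells, and Utf1 1.10-fold and 3.58-fold (3.35 to 3.84). L1td1 was 1.52-fold and 3.03-fold (2.90 to 3.16), Dnmt3b 1.72-fold and 2.23-fold (2.07 to 2.40), and Slc7a3 1.54-fold and 1.65-fold (1.48 to 1.85), where the intervals of the 2 libraries overlap. Gdf3 was 1.07-fold and 25.7-fold (16.9 to 41.3), from 0.996 CPM in low-score PHD2-KO cells. The correlation of Dnmt3b with L1td1 over cells was 0.29 in WT and 0.28 in PHD2-KO.

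Of the genes higher in high-score WT cells, 809 were measured in PHD2-KO cells, where 253 (31.3%) were higher and 11 lower, beside 13.3% and 4.63% of all genes measured there. Of the lower genes, 219 were measured, and 50 (22.8%) were lower and 30 (13.7%) higher. In PHD2-KO cells, too, the median log2 ratio was higher for longer genes, at 0.009, 0.16 and 0.27 from the shortest to the longest tercile. The part of transcript length in these shares was not tested. The formative list gave 12 of 16 higher in WT cells and 7 of 14 in PHD2-KO cells, with medians of 0.75 and 0.57. The naive list gave 0 of 7 higher in WT cells and 7 of 9 in PHD2-KO cells, with medians of -0.17 and 1.31. For Zfp42 the ratio was 0.952 in WT cells, and in PHD2-KO cells it was 3.79, from 65.3 CPM in high-score and 17.2 CPM in low-score cells. Nascent mesoderm genes, of which 1 was measured in WT cells, gave 7 of 7 lower in PHD2-KO cells, with a median of -3.42. In high-score PHD2-KO cells Phlda2 held 188 of the 214 CPM of that list. Some of the others thus reached 5 CPM through the low-score cells alone, so the count of 7 is no support for a direction. Members measured through 1 group alone were not set apart for any PHD2-KO list. The epithelial list had a median of 0.12 in WT cells and 1.37 in PHD2-KO cells, and Cdh1, the epithelial cadherin, was at 101 and 74.1 CPM in high- and low-score WT cells and 88.9 and 25.2 CPM in those of PHD2-KO. The annexin, S100 and galectin list gave 11 of 14 lower in WT cells and 4 of 13 in PHD2-KO cells, with medians of -1.12 and -0.38. With 1 library of each genotype, the genotype and the library cannot be told apart.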

How the data were processed

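Single-cell data of 2 libraries were analysed from the deposited matrices. The authors deposited whole-number counts of UMIs per gene and barcode, not normalized, and per the file headers Cell Ranger 4.0.0 wrote them. The mm10 build, Cell Ranger and Seurat are named per the submitters' processing notes. The annotation, transcript end and read depth used were not given in the sources used here. Groups come from the sample titles. Kept cells, the score and the 15% ends follow the rule stated with the results. UMIs were summed per group and scaled to 1000000, with no pseudocount. A group at 0 was set to a floor of 3 counts. Genes at 5 CPM or more in the higher group were called past a ratio of 1.5, with the 6 markers left out. Intervals are at 95%, cover counting error alone, and list medians have order-statistic intervals over members (the range under 6 members). The 38 lists, the members and the rule were chosen with earlier results of these data known. Named genes are the 6 markers, the 15 highest and 15 lowest ratios at 50 CPM or more (without predicted, ribosomal protein or mitochondrially encoded genes), the member with the most UMIs and up to 2 end members of each list, and 10 genes fixed by name. Others illustrate counts and were chosen after their values were seen, as were Dnmt3a, Anxa1, Cdh1, Acta2 and the lesser-ranked members of short counts. For shares, cells were thinned to 14000 UMIs by random draws, and shallower cells were dropped, namely 104 high-score, 405 between and 277 low-score cells. Scrublet in scanpy called 0 doublets at its automatic threshold, so the 681 highest scores (7.38%) were left out as an alternative only; they were 7.59% of high-score and 2.96% of low-score cells. Coordinates and transcript lengths come from GENCODE M21 on mm10, matched by gene identifier for 27645 of 27998 genes. The scripts were tested on simulated data and used Python 3.11.15, numpy 2.4.6, scipy 1.17.1, pandas 2.3.3, scanpy 1.11.5 and matplotlib 3.10.9.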

Additional observations from a re-analysis of the deposited data

Results flagged for a closer look

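In 12 of the genes named here and measured in both libraries the ratio of high-score over low-score cells passed 1.5-fold in opposite directions in the 2 libraries, each with 1 library and its own limits. The difference between the libraries was not tested. Dppa3, Fbxo15 and Fzd7 in WT cells, and Rhox5 and Fzd7 in PHD2-KO cells, reached 5 CPM in 1 group alone. The direction of these genes in that library is therefore no support for a difference. Values are log2 ratios of CPM, WT cells first and PHD2-KO cells second. Lower in high-score WT cells and higher in high-score PHD2-KO cells were the actin gene Acta1 (-1.72 and 0.96), the naive genes Dppa3 (-2.72 and 0.67) and Fbxo15 (-2.29 and 1.31), the homeobox gene Rhox5 (-0.79 and 2.88), the imprinted gene Peg10 (-1.04 and 0.63), Sfn (-0.83 and 1.26) and the claudin gene Cldn4 (-1.02 and 0.69). Higher in WT and lower in PHD2-KO were Tdgf1 (0.71 and -1.01), Eomes (0.63 and -1.73), Twist1 (0.84 and -0.91), the Wnt receptor gene Fzd7 (1.01 and -1.06) and the growth factor gene Vegfa (0.81 and -0.89). Anxa1 was also lower in WT (-2.74) and higher in PHD2-KO (2.24), but at 4.92 CPM it was under the 5 CPM limit in PHD2-KO cells.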

How the results depend on the processing

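Over 26 alternative settings, 11 of 29 list medians changed sign in at least 1 setting (40 of 750 values), among them G2M (0.41, -0.05 within bins of cell cycle share), streak (-0.41, 0.25 without Utf1), naive (-0.17, up to 0.14) and HIF targets (0.10, down to -0.27). In all, 735 values stayed within the interval over members. That interval is wide for short lists (-2.72 to 0.34 for the naive list), so staying within it is a weak check. Of 177 named genes 47 changed sign (157 of 4599 values), 1 of them past the fold at first: Tcstv3 was at 0.20 (log2) with Zscan4 cells left out, where it is near 0 in both groups. The count of higher genes (834) was 459 within bins of cell cycle share, 409 within bins of genes detected, 2041 without Utf1, 192 without Dnmt3b, 76 without L1td1, 78 against all other WT cells, 401 with median-of-ratios scaling, 3099 with no filter and 395 at 20 CPM or more. The count of lower genes (250) was 146 within bins of cell cycle share, 44 against all other WT cells, 2978 with no filter and 97 at 20 CPM or more. The last 2 settings test more or fewer genes; for the others the cause was not tested. The formative list median (0.75) was 0.52 without Dnmt3b and 0.44 against all other WT cells. No paired analysis was possible because each genotype is 1 library. Depth limits genes near 5 CPM, and no value has a replicate check.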
